A study of Rattus norvegicus with 2 samples.

Results

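The 5 genes described here encode the class II major histocompatibility complex (MHC) of the rat and its chaperone. RT1-Da and RT1-Db1 encode the alpha and beta chains of RT1-D, the counterpart of human HLA-DR, RT1-Ba and RT1-Bb the alpha and beta chains of RT1-B, the counterpart of HLA-DQ, and Cd74 the invariant chain. They were taken by name from a set list, and all 5 were present among the 22154 genes listed in at least 1 of the 2 count tables. The cells came from the zygomatic maxillary suture, where cheek bone and upper jaw meet, of rats aged 4 weeks. In the distraction library a W-shaped spring of 0.4 mm nickel-titanium wire, giving 20 g of initial force, had pulled on the suture for 7 days. The sham library came from rats with drilled holes and no spring, also taken at 7 days. Anaesthesia, skin incision and separation of the chewing muscles were the same in both groups. The sources used here do not give strain, sex, genotype or from how many animals each library came. Each group has 1 library, so no difference between the libraries has a replicate check and none was tested.

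Class II molecules are pairs of an alpha and a beta chain that display peptides from endosomes to CD4+ T cells. The invariant chain fills the peptide groove of a new pair, guides it to the endosome and is cut away there before peptide is loaded. Dendritic cells, mature B cells and activated macrophages are the classical carriers, while red cell precursors and granulocytes usually hold little or none. The genes share a promoter module of X and Y boxes, which RFX, CREB and NF-Y proteins occupy and to which the coactivator Ciita is recruited.

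The promoter letters of the 4 chain genes are shown because all 4 hold the same Y box letters. In 3 of them the X box core letters searched for here lie before it. Yet the 4 genes were not found in constant proportion in the cells, as described below. The letters are 60-base windows upstream of the transcription start from the RefSeq promoter table, assembly GRCr8, read 5′ to 3′ on the strand of the gene. This is not the Rnor_6.0 build named for the counts, and the gene symbol alone links them. The window of RT1-Da lies at chr20:4515319-4515378 on the plus strand, that of RT1-Db1 at chr20:4560230-4560289 on the minus strand, that of RT1-Ba at chr20:4576967-4577026 on the plus strand and that of RT1-Bb at chr20:4604167-4604226 on the minus strand. Capitals mark an X box core and a Y box in RT1-Da, RT1-Db1 and RT1-Bb, and a cyclic AMP response element and a Y box in RT1-Ba.
RT1-Da: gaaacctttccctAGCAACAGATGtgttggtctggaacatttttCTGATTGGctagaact
RT1-Db1: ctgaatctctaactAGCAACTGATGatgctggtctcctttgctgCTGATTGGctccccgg
RT1-Ba: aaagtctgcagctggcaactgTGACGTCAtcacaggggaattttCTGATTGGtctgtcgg
RT1-Bb: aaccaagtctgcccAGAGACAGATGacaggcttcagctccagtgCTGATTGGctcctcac

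The X box core was searched as the capitals shown for RT1-Da, RT1-Db1 and RT1-Bb with any base at the 3 positions where they differ, the Y box as CTGATTGG and the response element as TGACGTCA, on both strands of 33469 promoter windows that reach from before to just after a gene start. They were chosen after the class II promoters had been read, so their presence there is a description. The X core occurred in 0.95% of the windows, the Y box in 3.5% and the response element in 1.83%. An X core followed within 40 bases by a Y box occurred in 5 windows, or 0.0149%. These were the windows of RT1-Da, RT1-Db1, RT1-Bb, the neighbouring beta chain gene RT1-Db2, and Slc4a5, a bicarbonate transporter gene. From the first base of the X core to the first base of the Y box the distance was 31 bases in RT1-Da, 30 in RT1-Db1 and 30 in RT1-Bb. RT1-Ba held no match to the X core, whose letters were taken from RT1-Da, RT1-Db1 and RT1-Bb. That alone does not show that RT1-Ba lacks an X box. In the Cd74 window, on the strand of the gene, none of the 3 letter patterns was found, which says only that these letters are not there. A match is not a measured binding site, and no binding was measured here.

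After filters on depth the distraction library held 4037 cells and 31202493 molecules, counted as unique molecular identifiers (UMIs), and the sham library 5183 cells and 29488955 UMIs, with medians of 4161 and 3033 UMIs per cell. The libraries shared 22 cell labels. Cells were sorted into gates by how many markers of a cell type they held, and no class II gene was a marker. Most cells were blood-forming: B-lineage cells made up 35.5% and 59.8% in the distraction and sham libraries, neutrophils 24.9% and 11.2%, and stromal cells 1.11% and 0.405%. Cells that met gates of 2 lineages were set apart as mixed, no doublet caller was run, and doublets may remain. Levels below are the UMIs of a gene per 1000000 UMIs of the same cells (CPM), and intervals are exact 95% intervals that cover counting error only. A ratio of 1.5 or more, or its inverse or less, is named a call. Where 2 values are given without names, the first is the distraction library and the second the sham library. A level is compared for 1 gene between cells and not between genes, because no length correction was made.

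Class II UMIs were most concentrated in late B-lineage cells and dendritic-gated cells. Late B-lineage cells are non-cycling B-gated cells with a mature marker such as Ms4a1 (CD20), Cd22 or Fcmr and without recombinase, terminal transferase or surrogate light chain UMIs. Their summed class II level was 15386 CPM (15092 to 15685) in 241 distraction cells and 10429 CPM (10269 to 10591) in 608 sham cells. In dendritic-gated cells it was 13492 CPM (13116 to 13875) in 29 distraction cells and 22268 CPM (21711 to 22836) in 25 sham cells. Late B-lineage cells therefore ranked first under distraction and dendritic-gated cells did so in sham. The intervals did not overlap in either, but they leave out the spread between cells. The 3 dendritic-gated cells with most held 72.0% and 51.2% of the class II UMIs of that gate, so this order rests on few cells. Macrophage-gated cells held 1984 CPM (1788 to 2197) in 17 distraction cells and 8363 CPM (7789 to 8968) in 14 sham cells. Monocyte-gated cells held 851 CPM (812 to 891) in 166 distraction cells and 1242 CPM (1192 to 1293) in 161 sham cells. Pre-B cells, with 1031 and 1083 CPM, lay above the monocytes under distraction and below them in sham, and cycling B-lineage cells, with 794 and 610.4 CPM, below them in both. The B-lineage gate as a whole carried 49.1% of all class II UMIs of the distraction library and 53% of the sham library. The dendritic gate carried 14.5% and 12.6% with 0.718% and 0.482% of the cells. Cells that met no gate carried 14.7% and 20.7%, and mixed cells 9.93% and 4.33%. The 7 plasma-gated cells of each library held 5396 and 1359.8 CPM.

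**Figure D1:**
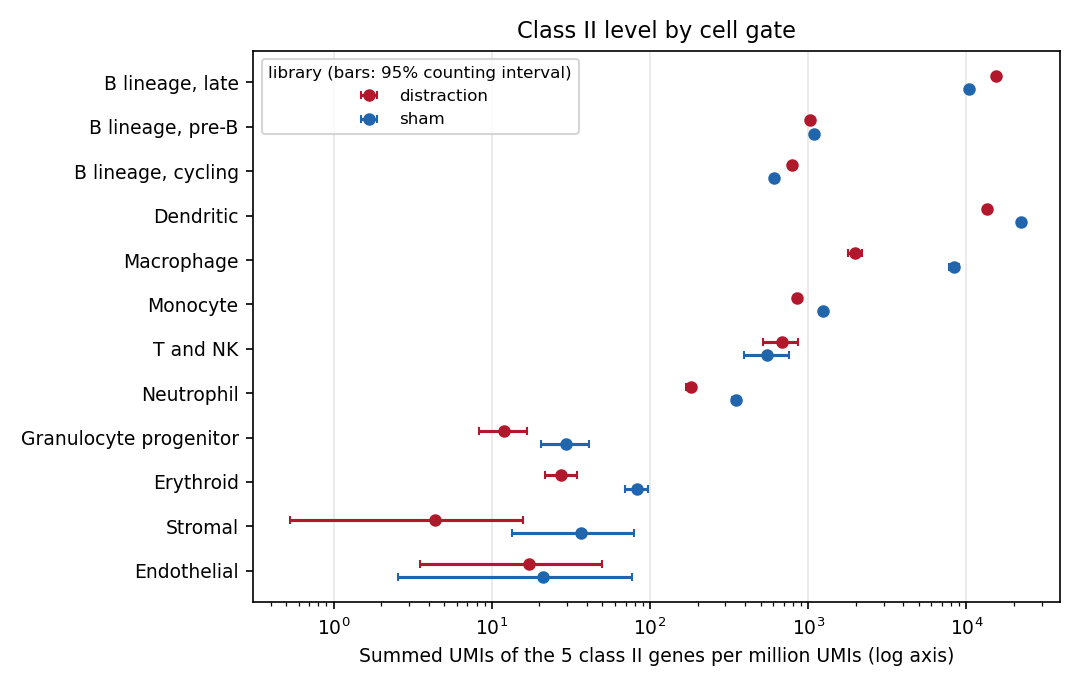
Summed UMIs of the 5 class II genes per 1000000 UMIs in each cell gate, on a log axis, for the distraction and sham libraries; bars are 95% counting intervals. Late B-lineage and dendritic-gated cells lie above 10000 CPM in both libraries, and erythroid cells lie at 27.5 and 82.7 CPM.

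The level in neutrophils and erythroid cells served as the measure of free RNA. Neutrophils held 181 CPM (169.9 to 192) in 1005 distraction cells and 349.9 CPM (329 to 372) in 582 sham cells, and erythroid cells 27.5 CPM (21.7 to 34.4) in 401 and 82.7 CPM (69.6 to 97.6) in 283 cells. In neutrophils these UMIs sat in few cells: the 5% of cells with most held 95.5% and 93.5% of them, and the other cells stood at 9.16 and 25.4 CPM. All 5 members were found together in 6 of the 1005 distraction neutrophils and 4 of the 582 sham neutrophils, and no member in 907 and 485. Granulocyte progenitors had 11.9 and 29.5 CPM. The free RNA measure was thus higher in the sham library. Its neutrophil part includes the few class II rich cells, and whether their UMIs are free RNA was not tested. Against neutrophils and erythroid cells together, at 131 and 252 CPM, dendritic-gated cells were 103 (96.4 to 109.9) fold higher in the distraction library and 88.3 (83.0 to 94.1) fold higher in the sham library. These intervals cover counting error only: over the alternative gates, depths and totals the ratio ran from 55.4 to 725 and from 62.2 to 237, and 1 cell held 36.8% and 18.0% of the class II UMIs of the gate. By member this ratio ran from 74.3 for Cd74 to 130.1 for RT1-Da in the distraction library and from 64.2 to 126 for the same genes in the sham library. All 5 members were called higher there, beside 51.9% of 3644 genes under distraction and 51.9% of 3737 in sham, where the median log2 ratios were 0.64 and 0.63.

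All 5 members were higher in late than in early B-lineage cells of both libraries, where early means every other cell of the B gate. Of all genes tested, 13.9% under distraction and 12.5% in sham were called higher in late cells, with median log2 ratios of -0.05 and -0.02. The sum was 16.8 (16.3 to 17.3) fold higher in distraction cells and 13.4 (13.1 to 13.8) fold higher in sham cells. Both alpha chain genes followed this with large steps. RT1-Da went from 69.5 to 2341 CPM in the distraction library and from 42.8 to 1357 CPM in the sham library, ratios of 33.7 and 31.7. RT1-Ba went from 48.4 to 2028 CPM in the distraction library and from 26.6 to 1001 CPM in the sham library, ratios of 41.9 and 37.7. Its partner RT1-Bb went from 9.92 to 419.6 CPM in the distraction library and from 7.63 to 278 CPM in the sham library, ratios of 42.3 and 36.4. The step of Cd74, the invariant chain, was smaller. It went from 285 to 7001 CPM in the distraction library and from 302 to 5651 CPM in the sham library, ratios of 24.6 and 18.7. RT1-Db1, the beta chain of RT1-D, went from 504 to 3597 CPM in the distraction library and from 398 to 2142 CPM in the sham library, ratios of 7.13 and 5.38. The ratio of RT1-Db1 was the smallest of the 5 in both libraries, and its intervals (6.77 to 7.52 and 5.14 to 5.62) did not reach those of the other members.

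**Figure D2:**
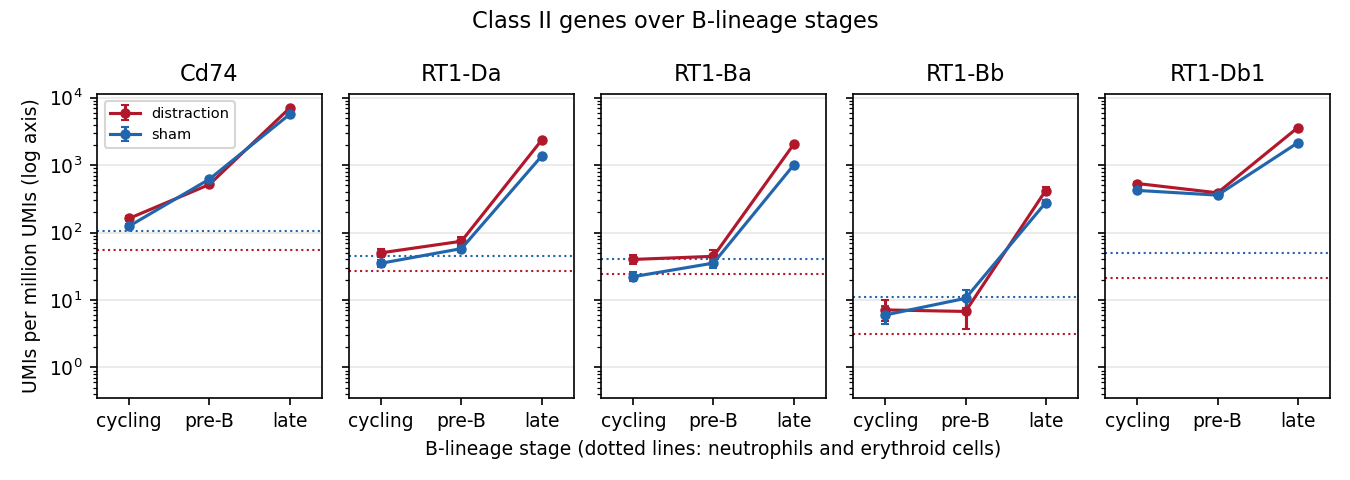
Level of each class II gene, in UMIs per 1000000 UMIs on a log axis, in cycling, pre-B and late B-lineage cells of the distraction and sham libraries; bars are 95% counting intervals and dotted lines the level in neutrophils and erythroid cells of the same library. In cycling cells RT1-Db1 lies at 534 and 422 CPM, far above its dotted lines at 21.3 and 49.7 CPM, whereas RT1-Da lies at 50.2 and 35.1 CPM beside lines at 27.2 and 45.4 CPM.

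RT1-Db1 was detected in most cycling B-lineage cells, defined by at least 3 of 9 division genes such as Mki67, and RT1-Da, its chain partner, in few. RT1-Db1 had a UMI in 396 of 463 cycling cells of the distraction library (85.5%) and in 636 of 814 of the sham library (78.1%), with medians of 3 and 2 UMIs per cell. RT1-Da had one in 29 and 64 of these cells. Of the cycling cells with RT1-Db1, 92.9% (89.9 to 95.2) in the distraction library and 91.5% (89.1 to 93.6) in the sham library had no RT1-Da UMI. In pre-B cells the same share was 91.2% and 91.0%, and in late cells 40% and 44.7%. In dendritic-gated cells 0 of 18 and 3 of 21 cells with RT1-Db1 lacked RT1-Da. RT1-Db1 was the sole class II gene detected in 253 distraction and 403 sham cycling cells, or 54.6% and 49.5% of them.

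The level of RT1-Db1 in cycling cells was 25.1 (21.5 to 29.3) times that of neutrophils and erythroid cells together in the distraction library. In the sham library it was 8.49 (7.42 to 9.75) times. That joint level of RT1-Db1 was 21.3 and 49.7 CPM, and erythroid cells alone were lower, at 8.32 and 23.6 CPM. Dividing cells of other lineages did not reach the level of cycling B-lineage cells. Cycling erythroid cells held 9.53 and 10.7 CPM of RT1-Db1, and cycling granulocytic cells 3.30 and 7.37 CPM. RT1-Da, RT1-Ba and RT1-Bb were above the joint level in distraction cycling cells and below it in sham ones. The second direction turned against erythroid cells alone, which leave out the few class II rich neutrophils. RT1-Da stood at 1.85 and 0.774 times that level. RT1-Ba, at 40 and 22.2 CPM, stood at 1.67 and 0.552 times. RT1-Bb, at 7.13 and 6.01 CPM, stood at 2.26 and 0.535 times. In sham erythroid cells RT1-Da was at 6.50, RT1-Ba at 10.6 and RT1-Bb at 1.18 CPM, below the 35.1, 22.2 and 6.01 CPM of sham cycling cells. Cd74, at 163 and 125 CPM, was above the level of neutrophils and erythroid cells together in both, by 2.93 and 1.19 fold. In the cycling cells without a Cd74 UMI (333 and 582 cells), RT1-Db1 still stood at 449 and 381 CPM. From cycling to pre-B cells the level of Cd74 was 3.18 and 4.96 times higher, to 517 and 620.2 CPM, while that of RT1-Db1 was 0.728 and 0.851 times its cycling level, at 389 and 359 CPM. These 2 genes thus differed in opposite directions between the 2 groups of cells in both libraries.

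Cycling cells were deeper than the others, with medians of 8173 and 7726 UMIs against 2492 and 2362 in pre-B and 2476 and 2336 in late cells, so each cell was also thinned to 2000 UMIs. This left out 4 and 11 shallower cycling cells, 171 and 499 pre-B cells and 46 and 164 late cells. After thinning, RT1-Db1 was found in 53.4% and 48.4% of cycling, 41.0% and 38.6% of pre-B and 76.9% and 61.7% of late cells. Cd74 was found in 12.0% and 9.09% of cycling, 29.9% and 29.1% of pre-B and 83.6% and 73.6% of late cells. RT1-Da was found in 2.83% and 2.74%, 3.76% and 4.64% and 50.8% and 39.2%. In thinned neutrophils the shares were 2.23% and 3.27% for RT1-Db1, 1.91% and 5.99% for Cd74 and 1.17% and 2.54% for RT1-Da. In the distraction library the share with RT1-Da was 2.83% (1.52 to 4.79) in cycling cells and 1.17% (0.585 to 2.08) in neutrophils, with intervals that overlap. In the sham library the 2 shares were close. The share of cycling cells with RT1-Db1 was far above that of neutrophils in both libraries.

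As a share of the class II UMIs, RT1-Db1 made up 67.3% (65.7 to 68.8) and 69.1% (67.8 to 70.5) in cycling cells. In pre-B cells it made up 37.7% (35.6 to 39.8) and 33.2% (31.8 to 34.5), and in late cells 23.4% (22.6 to 24.2) and 20.5% (19.9 to 21.2). Dendritic-gated cells were near the late cells, at 19.2% (18.1 to 20.3) and 19.8% (18.8 to 20.8). The share was 13.7% and 14.1% in monocyte-gated cells, 15.2% and 18.5% in neutrophils and 30.3% and 28.6% in erythroid cells. In T and NK cells the share was as high as 46.0% (33.4 to 59.1) and 69.2% (52.4 to 83.0). That rests on 63 and 39 class II UMIs in 18 and 9 cells, most of them in 1 cell. RT1-Db1 stood at 312 and 381 CPM in those cells. The RT1-Db1 share was therefore highest in cycling, lower in pre-B and lowest in late B-lineage cells in both libraries, with intervals that did not overlap. Cycling cells were set apart by division genes whatever their other stage markers, so this is an order of gates and no measured progression. Cd74 made up 20.5% and 20.5% in cycling, 50.1% and 57.3% in pre-B, 45.5% and 54.2% in late and 30.5% and 30.4% in dendritic-gated cells. The number of RT1-Db1 UMIs per RT1-Da UMI went from 10.7 and 12.0 in cycling cells to 5.22 and 6.21 in pre-B, 1.54 and 1.58 in late and 0.732 and 0.767 in dendritic-gated cells.

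**Figure D3:**
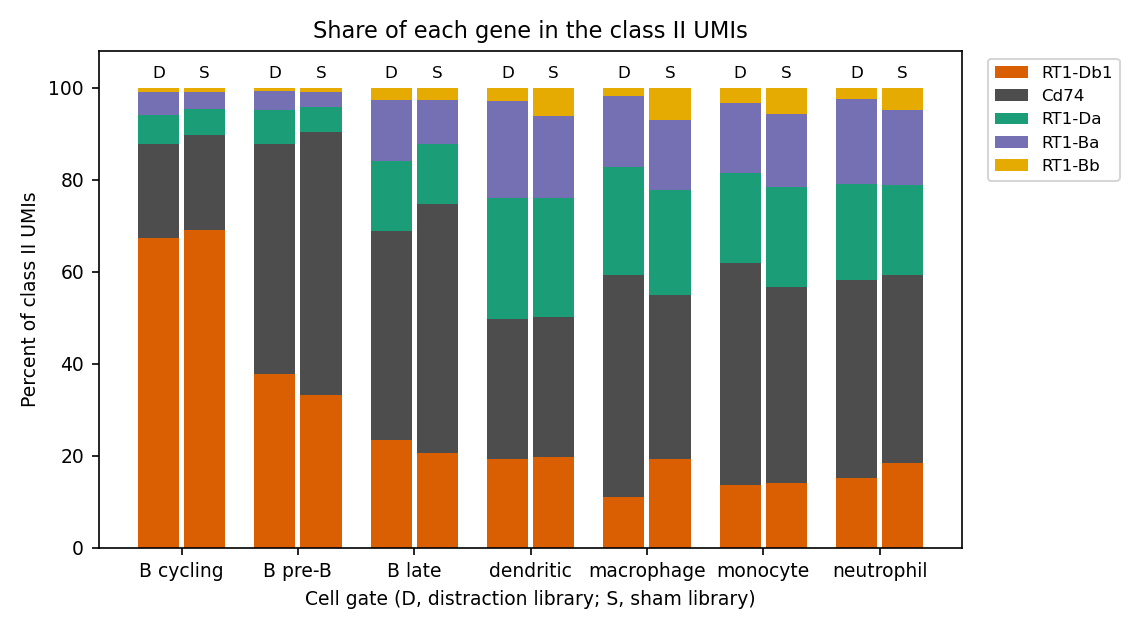
Share of each of the 5 genes in the class II UMIs, in percent, by cell gate for the distraction and sham libraries. RT1-Db1 takes 67.3% and 69.1% in cycling B-lineage cells and 19.2% and 19.8% in dendritic-gated cells.

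RT1-Db2, a beta chain gene that neighbours RT1-Db1 and resembles it, was found at low counts. It stood at 16 and 13.8 CPM in cycling, 14.5 and 10.4 CPM in pre-B and 68.2 and 33.0 CPM in late B-lineage cells, against 0.586 and 0.649 CPM in neutrophils and erythroid cells. How reads were divided between RT1-Db1 and RT1-Db2 could not be learned from the labels or headers, so the split between these near copies is uncertain.

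Between the libraries, 4 of the 5 members were called higher in late B-lineage cells of the distraction library, beside 3.5% of 3575 genes, whose median log2 ratio was -0.04. RT1-Ba stood at 2028 against 1001 CPM, a ratio of 2.03 (1.88 to 2.18). The ratio was 1.72 (1.61 to 1.84) for RT1-Da and 1.68 (1.59 to 1.77) for RT1-Db1. RT1-Bb, at 1.51 (1.30 to 1.76), was close to the fold. Cd74 did not reach it, at 7001 against 5651 CPM (1.24, interval 1.20 to 1.28), and neither did the sum (1.48, interval 1.44 to 1.51). The share of late cells with at least 10 class II UMIs was 59.3% and 46.2%, and the share with all 5 members 28.6% and 18.6%. No class II UMI was found in 20 of 241 distraction and 106 of 608 sham late cells. The cell with most held 2.63% and 2.05% of the UMIs.

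Late cells of the 2 libraries also differed in how many late markers they held: 2 or more in 73.4% of distraction and 66.0% of sham late cells. The class II level was higher with each step of that number in both libraries. Cells with 1 late marker had 8146 and 4626 CPM, cells with 2 had 15114 and 9799.6 CPM, and cells with 3 or more had 20809 and 16765 CPM. Within each step the distraction library was higher, by a ratio of 1.76 (1.64 to 1.89) with 1 marker, 1.54 (1.48 to 1.60) with 2 and 1.24 (1.20 to 1.29) with 3 or more.

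In the other B-lineage stages the libraries were closer. In cycling cells 1 of 5 members was called higher, beside 0.447% of genes: RT1-Ba, at a ratio of 1.80 (1.45 to 2.23). RT1-Db1 had a ratio of 1.27 (1.20 to 1.33) there. In pre-B cells 1 of 5 members was called lower, beside 1.07% of genes: RT1-Bb, on 14 and 45 UMIs with an interval that includes 1 (0.639, interval 0.324 to 1.19), and RT1-Db1 had 1.08 (0.992 to 1.18). Over the whole B gate 1 of 5 members was called higher, beside 0.137% of genes: RT1-Ba (1.66, interval 1.56 to 1.78), and the other 4 lay between 0.983 for Cd74 and 1.43 for RT1-Da. Among B-gated cells in none of the 3 stages, 26 distraction cells held 6783 CPM, with 56.1% of it in 1 cell, and 78 sham cells 627 CPM.

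**Figure D4:**
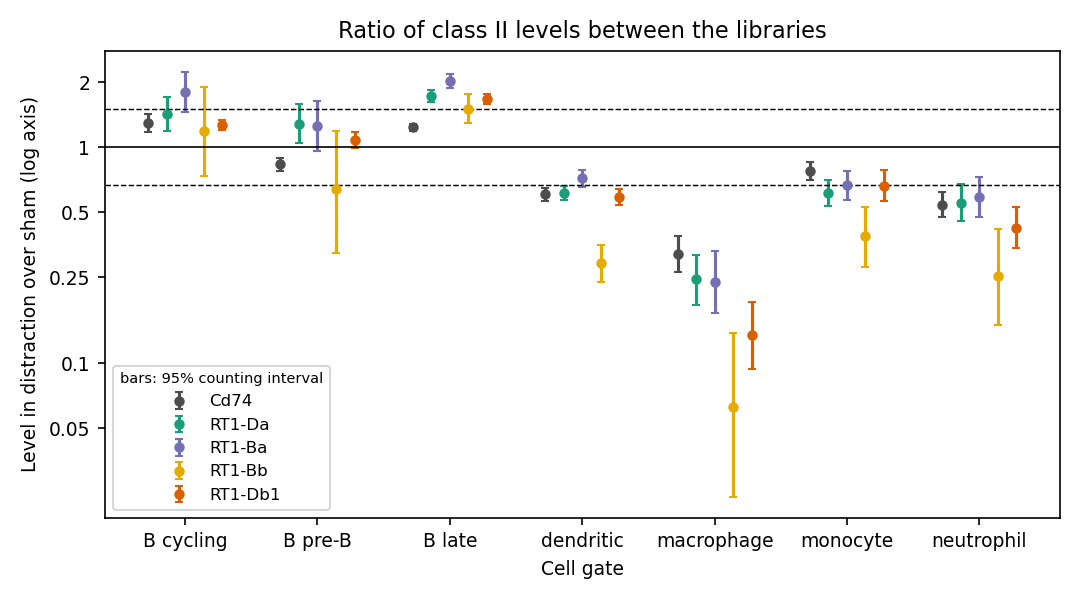
Level in the distraction library over that in the sham library for each of the 5 genes by cell gate, on a log axis; bars are 95% counting intervals and dashed lines mark the 1.5-fold used for a call. In late B-lineage cells the ratios lie from 1.24 for Cd74 to 2.03 for RT1-Ba, and in dendritic-gated cells from 0.291 for RT1-Bb to 0.717 for RT1-Ba.

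In dendritic-gated cells 4 of the 5 members were called lower in the distraction library, beside 12.8% of 3353 genes. RT1-Da was at 3536 against 5742 CPM (0.616, interval 0.571 to 0.663). RT1-Db1 was at 2589.7 against 4402 CPM (0.588, interval 0.540 to 0.641). Cd74 was at 4115 against 6774 CPM (0.607, interval 0.567 to 0.651). RT1-Bb had the lowest ratio, 0.291 (0.239 to 0.354), and RT1-Ba stayed within the fold at 0.717 (0.658 to 0.782). These sums rest on few cells: the 3 cells with most carried 72.0% of the gate's class II UMIs under distraction and 51.2% in sham. The direction also depended on the gate. The ratio of the sum was 0.606 as gated, 0.467 without the top cell of each library, 1.52 with 1 more marker required (15 and 14 cells) and 1.03 with 1 fewer (17 and 19 cells, since more cells then became mixed).

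Within the dendritic gate the class II level differed by subset marker, a split chosen after the levels had been seen. Clec9a encodes a receptor for dead cells on type 1 conventional dendritic cells, and Siglech a lectin of plasmacytoid dendritic cells, which are weaker in presenting antigen. Of the 14 markers of the gate 10 and 12 had UMIs, while Xcr1 was at 0 in both libraries and Batf3 in the distraction library. The classes below are thus named by 1 marker each, and which subset they are was not tested. The 5 distraction cells with Clec9a had 54186 CPM (52428 to 55988) and the 5 sham cells 42401 CPM (40772 to 44078). Over both libraries, 3 of the cells with Clec9a also held Siglech, so this class is not free of the plasmacytoid marker. Cells with Siglech and no Clec9a had 3057 CPM (2756 to 3383) in 12 distraction and 4390 CPM (3946 to 4870.5) in 9 sham cells. Cells with neither had 5337 CPM (4999 to 5692) in 12 distraction and 24077 CPM (23244 to 24932) in 11 sham cells. Every Clec9a cell of this gate held at least 130.6 class II UMIs per 10000, while a sham monocyte-gated cell with Clec9a held 21.8. Siglech cells without Clec9a ranged from 0 to 179.8 in the distraction library and from 1.73 to 175 in the sham library, with medians of 12.8 and 18.8. The ratio between libraries was 1.28 (1.21 to 1.34) in Clec9a cells, 0.696 (0.601 to 0.807) in Siglech cells and 0.222 (0.206 to 0.239) in cells with neither. The medians ran against these ratios for Clec9a cells, at 163 and 281 per 10000, and for cells with neither marker, at 19.1 and 15.5. In the distraction library 2 of the 5 Clec9a cells held 1802 and 1281 of the 3590 UMIs, and the other 3, at 131 to 163 per 10000, lay below every sham Clec9a cell, the lowest of which was at 213. Among sham cells with neither marker, 3 of 11 held 1089, 1063 and 527 of the 3155 UMIs. The ratios of these 2 classes thus rest on a few cells and do not describe the typical cell.

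**Figure D5:**
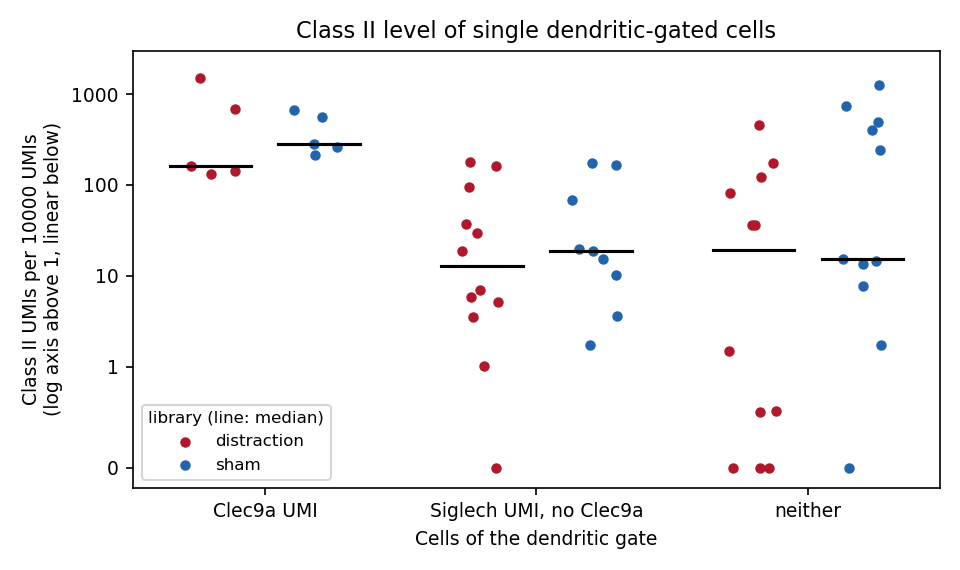
Class II UMIs per 10000 UMIs in each dendritic-gated cell of the distraction and sham libraries, by the subset marker held; black lines are medians, and the axis is logarithmic above 1 and linear below. Cells with Clec9a lie at 130.6 or more, and the other cells spread from 0 to 1246.

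The gate required at least 3 of 14 dendritic markers and set cells of a second gate apart, so the marker levels are a description and no check of it. Of the 14 markers 10 and 12 had UMIs, summing to 1602 and 1601 CPM, and Xcr1 and Fscn1 were at 0 in both libraries. Batf3 and Cd207 were at 0 in the distraction library only. The 11 macrophage markers summed to 22.1 and 3.67 CPM, with the complement genes C1qa, C1qb and C1qc at 0. The 9 B-lineage markers summed to 466 and 562 CPM, with Pax5, Vpreb1 and Vpreb3 at 0. The 9 monocyte markers summed to 1114 and 639 CPM. The part of the B-lineage and monocyte markers in the class II level was not tested.

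In macrophage-gated cells a few cells carried nearly all class II RNA. No class II UMI was found in 8 of 17 distraction and 9 of 14 sham cells, and 1 cell held 82.5% and 59.7% of the UMIs. All 5 members were called lower in the distraction library, where 14.1% of 1311 genes were, with ratios from 0.0629 for RT1-Bb to 0.322 for Cd74. In the sham library 2 cells held 470 and 300 of the 787 UMIs, so these ratios describe those cells. Without the top cell of each library the ratio of the sum was 0.0934 in place of 0.237.

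Monocyte-gated cells also mostly lacked class II UMIs: none was found in 118 of 166 distraction and 106 of 161 sham cells, and the 3 cells with most held 58.3% and 68.7%. Without the top 5% of cells they were at 60.8 and 95.6 CPM. In this gate 2.83% of genes and 4 of 5 members were called lower in the distraction library. The ratio was 0.613 (0.533 to 0.704) for RT1-Da, 0.387 (0.280 to 0.529) for RT1-Bb and 0.665 (0.562 to 0.787) for RT1-Db1, and RT1-Ba, at 0.666 (0.568 to 0.780), was at the fold. Cd74, at 0.777 (0.708 to 0.851), was within it. With 1 more marker required the ratio of the sum was 0.896, and with Leiden clusters in place of gates 0.324, against 0.685 here. The ratios of RT1-Bb and RT1-Db1 then reversed with 1 more marker, to 1.694 and 1.159, so their direction depended on the gate.

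In neutrophils all 5 members were called lower in the distraction library, where 2.08% of genes were, with ratios from 0.254 for RT1-Bb to 0.587 for RT1-Ba. The UMIs behind these ratios sat mainly in the few class II rich cells described above. Without the 5% of cells with most, neutrophils stood at 9.16 and 25.4 CPM, so the rest were also lower in the distraction library. The class II sum was lower there in erythroid cells too, at a ratio of 0.333, and in granulocyte progenitors, at 0.404. The cause was not tested. Stromal cells, the gate of the sutural fibroblasts, held 2 class II UMIs in 45 distraction cells and 6 in 21 sham cells, or 4.37 CPM (0.529 to 15.8) and 36.6 CPM (13.4 to 79.8). Endothelial cells held 3 UMIs in 19 and 2 in 14 cells, or 17.1 and 21.2 CPM. At this depth neither cell type was above the level of neutrophils and erythroid cells. Cd74 was at 0 in distraction stromal cells, where the set floor of 3 counts equals 6.55 CPM. That floor is no upper limit of the level. T and NK cells held 679 and 549.7 CPM in 18 and 9 cells, with 55.6% and 64.1% of it in 1 cell.

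The other genes of the class II pathway were mostly too low to compare. Of 25 listed names 23 were in the tables. Ciita, the coactivator, had 22 UMIs in all distraction cells and 37 in all sham cells. Late B-lineage cells held 8 and 17 of them (11.9 and 11.0 CPM) and early ones 2 and 9 (0.296 and 0.747 CPM). RT1-DMb, a chain of the peptide editor RT1-DM, had 5 and 1 UMIs, and RT1-DMa, the other chain, was at 0. In dendritic-gated cells against neutrophils and erythroid cells, 4 pathway genes were called higher and 2 lower in the distraction library, with 16 below the minimum, and 5 higher and 2 lower in the sham library, with 14 below it, where 20.9% and 20.9% of all genes were called lower and 51.9% and 51.9% higher. Ifi30, a thiol reductase that opens disulphide bonds of antigens, was at 1514 against 24.4 CPM in the distraction library and 1024 against 17.3 CPM in the sham library. Ctss, a protease that trims the invariant chain, was 24.5 and 31.4 fold higher. Sppl2a, which cuts the last membrane stub of Cd74, was 4.47 and 2.89 fold higher. Ctsd, an aspartic protease, was lower, at 46.9 against 410.1 CPM and 58.7 against 466 CPM. March8, a ubiquitin ligase gene, had 1 UMI in sham dendritic-gated cells, against 60.3 CPM in neutrophils and erythroid cells. Ctsl, a protease that trims the invariant chain in other tissues, was at 1137 and 922 CPM in monocyte-gated cells against 135 and 62.4 CPM in dendritic-gated cells.

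In late against early B-lineage cells 5 pathway genes were called higher and 2 lower in the distraction library, and 2 higher and 0 lower in the sham library, where 19.6% and 16.5% of all genes were called lower and 13.9% and 12.5% higher. Ifi30 was at 814 and 809 CPM in late cells, 5.31 and 5.31 fold above early cells. Ctss was 3.6 and 3.56 fold above them. Between the libraries the late cells had a ratio of 1.01, interval 0.908 to 1.11, for Ifi30 and of 1.12, interval 0.750 to 1.64, for Ctss, so neither reached the fold. In late cells 3 pathway genes were called higher in the distraction library, 0 lower and 6 were within the fold, beside 3.5% of all genes called higher and 4.03% lower. RT1-DOa, a chain of the inhibitor of RT1-DM, was at 59.3 against 22.6 CPM (2.62, interval 1.62 to 4.25). Lgmn, an endosomal asparaginyl endopeptidase, was at 68.2 against 22.0 CPM (3.10, interval 1.95 to 4.98). RT1-Db2 was the other (2.07, interval 1.36 to 3.14).

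Of 15 genes listed as inducers and co-stimulators, 0 were called higher in distraction late B-lineage cells and 1 lower, beside 4.03% of all genes: Spi1, which encodes the transcription factor PU.1, at 65.2 against 101 CPM (0.646, interval 0.452 to 0.908). Irf8, a transcription factor gene of B and dendritic cells and a marker of the dendritic gate, was at 249 and 239 CPM in late cells (1.04, interval 0.864 to 1.26). Cd40, the receptor for T-cell help, was at 145 and 153 CPM (0.948, interval 0.741 to 1.20). Cd83, which slows the loss of class II from the surface, was at 426 and 373 CPM (1.14, interval 0.986 to 1.32). All 3 were higher in late than in early cells: Irf8 by 9.29 and 6.42 fold, Cd40 by 3.41 and 2.61 fold and Cd83 by 4.64 and 3.05 fold. In dendritic-gated cells Cd83 was at 827 and 826 CPM (1.0, interval 0.840 to 1.20).

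The genes whose pattern was most like that of the class II sum were ranked by the Pearson correlation of log2(CPM + 1) over 16 pairs of gate and library with at least 20 cells, among 6039 genes. Gates of 1 library share depth and free RNA, so the values are a description. The 5 members took the first 5 places, from r = 0.98 for RT1-Db1 to 0.94 for RT1-Da, with the sum holding each of them. The next 10 genes, with r from 0.92 to 0.86, were AABR07035470.1, Hpse, Snx20, Atad2b, Gbp4, Fgd2, Timd2, Hs3st1, Irf8 and Cytip. Of these, 9 reached their highest level in dendritic-gated cells, and Fgd2 reached its own, 85.9 CPM, in sham B-lineage cells. The ranking took only genes with 50 CPM or more in 1 pair, so a peak in the dendritic gate could itself let a gene in. AABR07035470.1 and Gbp4 peaked there just above that minimum, at 55.1 and 52.4 CPM. Irf8 is a marker of that gate. The place of the peak is therefore no separate result. The levels were low except for Irf8, with at most 1109 CPM, and Cytip, with at most 654 CPM.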

How the data were processed

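Single cells were captured on the BD Rhapsody platform, 1 library per group. The deposited values are UMI counts per gene and cell, made by the authors in BD's WTA Rhapsody Analysis Pipeline, version 1.5.1, per the file headers. The build Rnor_6.0 and Seurat 3.6 are named in the submitters' processing notes, while the sources used here do not give the annotation release or how cells were called. The deposited cells numbered 4889 (distraction) and 5351 (sham), with 32078960 and 29924342 UMIs.

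Cells with at least 500 UMIs, 200 genes and under 25% mitochondrial UMIs were kept, and genes absent from 1 of the tables were set to 0 there. Each gate required a minimum number of markers, set after the marker counts per cell had been seen. Markers not used here included Cd79a, Derl3, Zbtb46, Timd4, Ccr2, Dcstamp and Hba1. B-lineage cells with at least 3 cycling markers were cycling, others with a UMI of Rag1, Rag2, Igll1, Vpreb1 or Dntt pre-B, and others with a late marker late. Counts were summed per gate and scaled to CPM. Sums have exact Poisson, shares Clopper-Pearson and ratios conditional binomial 95% intervals. A count of 0 was given a floor of 3 counts. No p-value was computed, since each group has 1 sample. The genes behind each share of genes called had at least 30 counts over both sides and 50 CPM in 1 of them. Named genes were the 5 members, up to 8 pathway genes by size of ratio (50 CPM minimum), and the 10 genes most like the class II sum. Any further gene was picked with its values in view. The members and lists were chosen with earlier results of these data known. Promoters of the 5 members were matched by symbol in the RefSeq table.

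Alternatives were every deposited cell, at least 1500 UMIs, 1 more or 1 fewer gate marker and thinning to 2000 UMIs. Others were the haemoglobin genes Hba-a2, Hba-a3 and Hbb and 1 immunoglobulin gene, Igh-6, left out of the total. The last were the top class II cell left out, mixed cells given to their best gate, and Leiden clusters. The scripts were tested on simulated data. Software was python 3.11.15, numpy 2.4.6, scipy 1.17.1, pandas 2.3.3, scanpy 1.11.5, leidenalg 0.10.2 and matplotlib 3.10.9.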

Additional observations from a re-analysis of the deposited data

Results flagged for a closer look

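Cells that met no gate, and so stand in no comparison, held 1784.5 CPM of class II in 471 distraction cells and 4770.2 CPM in 549 sham cells, above the 131 and 252 CPM of neutrophils and erythroid cells. Among them, cells with 2 B-lineage markers, 1 short of the gate, had 5208 and 6092 CPM, and cells with none had 754 and 3559 CPM. Cells with 2 dendritic markers, 23 and 25 of them, had 3860 and 15330 CPM, against 1038 and 1755 CPM in cells with none. Which cell types these are was not tested.

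The distraction to sham ratio of the class II sum was 1.475 in late B-lineage cells and 0.6059 in dendritic-gated cells, which is opposite in direction. With 1 library per group the difference between these ratios was not tested, and the dendritic ratio was above 1 with 1 marker more or fewer required.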

How the results depend on the processing

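Over 9 alternatives, 1 of them (1 fewer marker) added after seeing the data, the members kept their direction in late B-lineage cells, with ratios of 2.003 to 2.1 for RT1-Ba, 1.579 to 1.907 for RT1-Da, 1.624 to 1.856 for RT1-Db1, 1.351 to 1.801 for RT1-Bb and 1.158 to 1.307 for Cd74. RT1-Db1 made up 60.74% to 73.17% of class II UMIs in distraction and 68.88% to 71.28% in sham cycling cells. The dendritic ratio did not keep its direction. In macrophages and monocytes the ratio of the sum kept its direction, while its size moved with few cells. In monocytes the ratios of RT1-Bb and RT1-Db1 reversed with 1 more marker. With 1 library per group, and few dendritic and macrophage cells, spread between animals was not measured. No paired analysis was possible because each group has 1 library. The cause of each move below was not tested.

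With 1 more marker the ratio of the sum was 1.11 in B-lineage, 1.4 in late B-lineage, 1.522 in dendritic and 0.8957 in monocyte-gated cells. Single genes in dendritic-gated cells then reversed to 1.176 for Cd74, 1.576 for RT1-Da and 1.986 for RT1-Db1, and in monocytes to 1.694 for RT1-Bb and 1.159 for RT1-Db1. RT1-Ba in dendritic-gated cells, at 0.7172 as gated, went to 1.919. Late over early was 20.36 and 15.22, and dendritic over neutrophils and erythroid cells 724.9 in the distraction library. With 1 fewer marker the ratios were 1.236, 1.427, 1.031 (RT1-Da 1.05, RT1-Ba 1.161, RT1-Db1 1.173), 0.428 in macrophages and 0.3697 in monocytes, and dendritic over neutrophils and erythroid cells 211 and 237.3. With Leiden clusters the ratios were 1.267, 1.514, 0.8588, 0.4224 and 0.3241 in the same order, late over early 14.24 in sham cells, and dendritic over neutrophils and erythroid cells 406.9 and 118.7. Thinned to 2000 UMIs the ratio was 1.353 in B-lineage, 1.585 in late and 0.8393 in monocyte-gated cells, late over early 14.65 and 11.55, dendritic over neutrophils and erythroid cells 115.9 in the distraction library, and the Cd74 share 43.71% and 52.7% in B-lineage cells, 33.12% in distraction dendritic and 45.48% in distraction monocyte-gated cells. Without the top cell the ratio was 0.4671 in dendritic, 0.09336 in macrophage and 0.7357 in monocyte-gated cells, dendritic over neutrophils and erythroid cells 127.3 in the sham library, and the Cd74 share 35.5% in distraction dendritic, 53.85% and 42.27% in macrophage and 51.88% and 48.4% in monocyte-gated cells. With mixed cells given to a gate the ratio was 0.3573 in macrophages and 0.6349 in monocytes, and dendritic over neutrophils and erythroid cells 55.35 and 62.2. With Hba-a2, Hba-a3, Hbb and Igh-6 left out of the total the last ratio was 95.89 and 80.94.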
